A study of Homo sapiens with 18 samples.

Results

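Interferon-stimulated genes are the genes that cells switch on after interferon binds its receptor. A list of 41 of them was read, by gene symbol, from the whole transcriptome table of HCT116 cells, and all 41 were among its 38055 genes (the helicase RIGI is listed as DDX58). HCT116 is an epithelial line from a colorectal carcinoma, here wild-type (WT) with no treatment named in the labels, grown in McCoy's 5A medium with 10% serum. The 2 groups compared, each of 3 libraries labelled as biological replicates, were day 3 of culture, at 50% confluency, and day 5, at 250% confluency, where the cells had grown past a monolayer into stacked layers. The study asked how cell density affects where Argonaute proteins lie in the cell and how microRNAs act, and these libraries measure RNA levels at its densities. Days in culture and confluency moved together, so they cannot be told apart, and a single line was used.

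Type I interferons signal through the receptor chains IFNAR1 and IFNAR2 to the kinases JAK1 and TYK2, which phosphorylate transcription factors of the STAT family. STAT2 and IRF9 are subunits of the resulting complex, ISGF3, which binds a promoter sequence called the interferon-stimulated response element. Type II interferon acts at another sequence, the gamma-activated site. The genes that respond encode sensors of viral RNA, transcription factors that widen the response, and effectors that block viral entry, translation and release. Many have a basal level in epithelial cells without added interferon.

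Many members share promoter sequence that the list did not use. Promoters from RefSeq (GRCh38.p14, 250 bases before to 50 after the start) were at hand for 32 of the 41 members. The core of the response element was searched on both strands as GAAANNGAAA and was held by 22 of these 32 (68.75%), against 4.38% of all 27305 genes in the same table (a gene counts if any of its promoters holds the core) and 3.57% of all 35116 promoters. The core of the gamma-activated site, TTCNNNGAA, was held by 10 of 32 (31.25%), against 9.38% of all genes and 7.66% of all promoters. The 2 searches can overlap at the same bases, as in IFITM1, BST2 and IFI27. Not matched were MX2, USP18, IFITM2, OAS2, IFIT2, TRIM22, DHX58, OASL and IRF7. The 30-base windows below are shown for genes whose RNA fell or rose between the days, with the core in capitals. Each is read 5′ to 3′ on the strand of its gene. A core on the opposite strand appears as its reverse complement. Of the members shown as fallen, IFI6 lay near the threshold and lost its call without some single libraries. Members whose RNA fell are IFIT1 (chr10:89392497-89392526, plus strand), IFIT5 (chr10:89414554-89414583, plus), HERC5 (chr4:88457035-88457064, plus), SAMD9 (chr7:93118096-93118125, minus) and IFI6 (chr1:27672329-27672358, minus).
IFIT1: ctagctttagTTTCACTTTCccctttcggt
IFIT5: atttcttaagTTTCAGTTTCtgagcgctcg
HERC5: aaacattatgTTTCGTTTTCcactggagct
SAMD9: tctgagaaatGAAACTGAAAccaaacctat
IFI6: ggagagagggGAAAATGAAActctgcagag

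Members whose RNA rose (OAS3 and MX1 not past the threshold after a correction for GC content) are IFITM3 (chr11:320876-320905, minus strand), ISG20 (chr15:88638937-88638966, plus), PARP9 (chr3:122564322-122564351, minus), OAS3 (chr12:112938452-112938481, plus) and MX1 (chr21:41420559-41420588, plus).
IFITM3: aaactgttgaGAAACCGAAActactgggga
ISG20: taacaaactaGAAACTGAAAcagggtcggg
PARP9: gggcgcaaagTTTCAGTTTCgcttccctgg
OAS3: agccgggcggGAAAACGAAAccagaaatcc
MX1: gagcagaaatGAAACCGAAActgaattgtc

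The core stood in promoters of both directions of change: in 6 of 7 matched members that fell, in 5 of 7 that rose, and in 8 of 12 that did not pass the test. The gamma-activated core without the response element core lay in the promoters of IRF1, IRF9, OAS1 and IFI35. Shown are those of the transcription factors IRF1 and IRF9.
IRF1 (chr5:132490878-132490907, minus strand): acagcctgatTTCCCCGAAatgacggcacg
IRF9 (chr14:24161192-24161221, plus strand): accacgtgatTTCTGGGAAaaggccctccc

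The deposited values are a normalized signal per gene, and in each library they were whole multiples of the value of a single read. Recovered reads on genes came to between 27470978 and 56689369 in the day 3 libraries and between 31403756 and 33661896 in the day 5 libraries. The epithelial label was checked against 9 markers. EPCAM, the epithelial adhesion molecule, lay between 6932 and 7403 in all 6 libraries, while 2 of the 9, CDX1 and VIL1, were under 10 in every library. The summed epithelial markers moved with the day, from 37120 to 55191 on day 3 to 100347 to 101443 on day 5, and CDH1 alone rose by 2.63 on the log2 scale. Immune markers stayed near 0, with sums of 20.2 to 32.6 on day 3 and 21.4 to 26.9 on day 5, and the leukocyte marker PTPRC reached 2.14 at most. Fibroblast markers summed to 520.3 to 595 and 1114 to 1182, nearly all of it COL1A1, and DCN reached 4.33 at most. Endothelial markers summed to 15.6 to 27.2 and 39.3 to 68.3. Their part in the results was not tested.

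The list moved in both directions. Of the 41 members, 32 passed the filter on low values (10 or more in 3 or more of the 6 libraries), 10 of these rose from day 3 to day 5, 9 fell, and 13 did not pass the test. The 19 that passed are 59.4% of the 32, against 56.9% of all 20129 genes tested (29.3% higher and 27.6% lower), so the share was near the background. The median log2 fold change was −0.04 over the tested members and 0.01 over all tested genes. The libraries of the 2 days did not overlap in these same 19 tested members, against 65.0% of all tested genes. Only 4 of the 19 changed by 2-fold or more: OASL, IRF7 and IFITM3 rose and IFIT1 fell. In bulk RNA, a lower level in each cell and fewer cells with the RNA cannot be told apart.

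**Figure D1:**
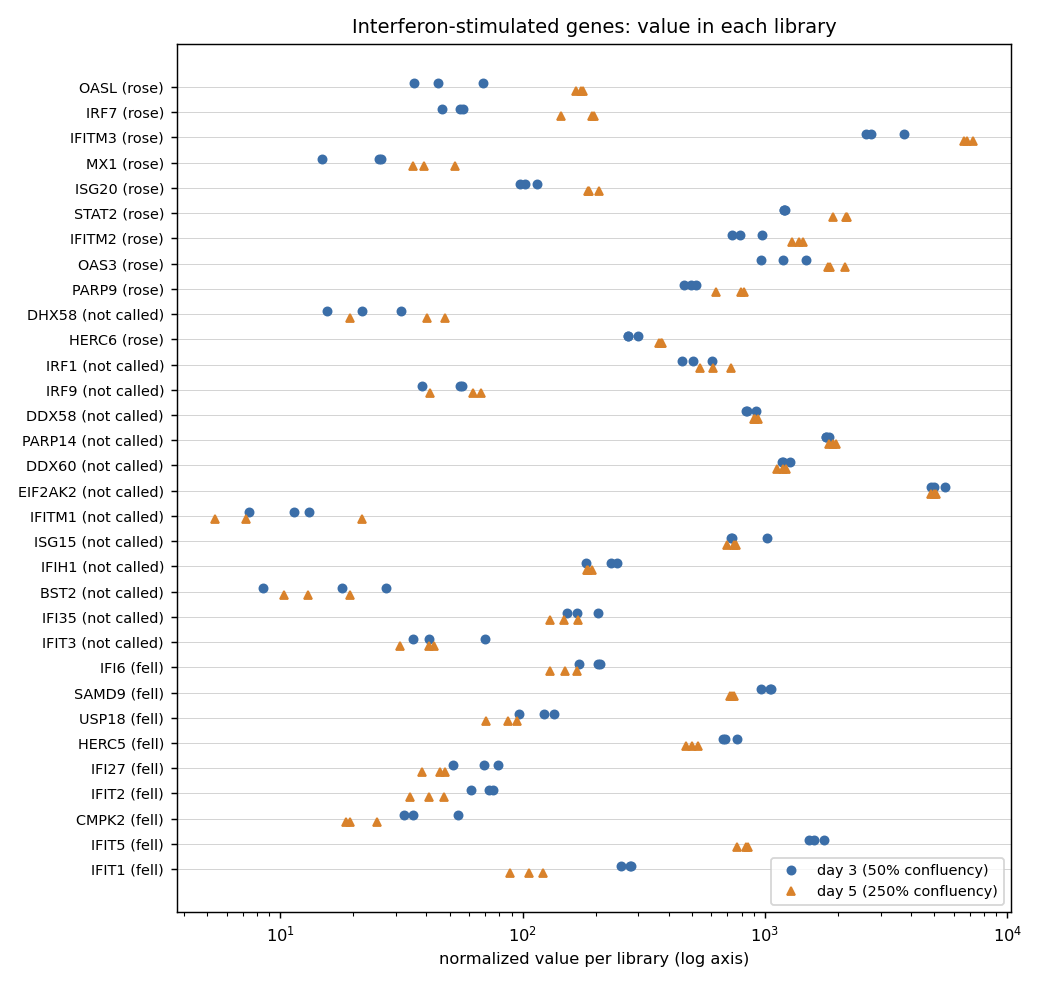
Normalized value (log axis) of the 32 tested interferon-stimulated genes in each of the 6 libraries, with 3 points per day, ordered by log2 fold change. OASL and IRF7 at the top and IFIT1 and IFIT5 at the bottom show days that lie clearly apart, while in EIF2AK2 and DDX60 the points of the 2 days are mixed.

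The sensors of viral RNA did not pass the test. DDX58 (RIGI), which recognises short double-stranded RNA with a 5′ triphosphate, had values of 831, 843 and 920.0 on day 3 and 900.1, 935 and 911 on day 5 (log2 fold change 0.08, adjusted p = 0.394). IFIH1 (MDA5), which binds long double-stranded RNA, had 182, 231 and 245 on day 3 and 194, 186 and 184 on day 5 (−0.21, adjusted p = 0.213). The outcome turned on its lowest day 3 library, since without day 3 replicate 1 the log2 fold change was −0.34 with an adjusted p of 0.0221. DDX60, a related helicase, had 1270.4, 1189 and 1169.5 against 1117, 1189.7 and 1218 (−0.04, adjusted p = 0.67). DHX58 (LGP2), a regulator of the other sensors that lacks their signalling domain, was low and scattered, with 31.6, 21.6 and 15.6 on day 3 and 47.7, 19.3 and 40.4 on day 5. Its interval ran from −0.39 to 1.55 on the log2 scale (adjusted p = 0.256), and without day 5 replicate 2 it was 0.96 with an adjusted p of 0.0474. In GENCODE 44, 96.6% of the 50-base windows of DDX58 occur in other genes, most often an overlapping unnamed one. Whether the annotation the authors mapped to held that gene was not checked, so how reads at that locus were divided is uncertain.

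Among the transcription factors, 2 of 4 rose and none fell, against 29.3% higher and 27.6% lower over all tested genes. IRF7, the factor that amplifies interferon production, had values of 46.5, 55 and 56.7 on day 3 and 193, 196 and 144 on day 5. The groups did not overlap, and IRF7 was 3.30-fold higher on day 5 (log2 fold change 1.72, SE 0.15, adjusted p = 0.000376). STAT2, the subunit of ISGF3 with the transactivation domain, had 1195, 1204 and 1196 on day 3, a spread of 4.61 (SD) around 1198, and 2170.1, 2159.7 and 1915 on day 5. It was 1.73-fold higher on day 5 (log2 0.79, SE 0.08, adjusted p = 0.000584). IRF9, the DNA-binding subunit of ISGF3, overlapped between the days at 56.2, 55 and 38.3 against 67.2, 62.2 and 41.4 (log2 0.18, interval −0.40 to 0.76, adjusted p = 0.542). Of the 50-base windows of IRF9, 92.8% occur in other genes, most often an overlapping unnamed gene. That gene was at 24.1 to 43.4 in this table, so the level of IRF9 is uncertain. IRF1, which responds mainly to type II interferon, had 456, 506 and 602 against 726, 611 and 541 (log2 0.26, adjusted p = 0.194).

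Of the effectors on translation and RNA decay, 3 rose and 3 fell among 8 tested (all tested genes: 29.3% higher, 27.6% lower). The IFIT proteins, which bind viral RNA 5′ ends and block its translation, lie side by side on chromosome 10 (IFIT2, IFIT3, IFIT1 and IFIT5, chr10:89283694-89421605, plus strand, GRCh38). IFIT1 had values of 277, 280.0 and 254 on day 3 and 121, 89.0 and 107 on day 5, and every day 5 library was below every day 3 library. It was 2.56-fold lower on day 5 (log2 fold change −1.36, SE 0.13, adjusted p = 0.000461). IFIT5 had 1513, 1597 and 1756 on day 3 and 853, 768 and 831 on day 5, which is 1.98-fold lower (−0.99, SE 0.09, adjusted p = 0.000431). IFIT2 stood at a lower level, with 61.5, 72.9 and 75.1 against 41.2, 47.2 and 34.2, and was 1.70-fold lower on day 5 (−0.77, SE 0.15, adjusted p = 0.00552). IFIT3 gave overlapping days, with 35.1, 69.9 and 41.1 against 41.2, 42.9 and 31.1. Its log2 fold change of −0.29 rested on the library at 69.9, and without day 3 replicate 2 it was near 0 (0.00049, adjusted p = 0.998).

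The 2′-5′ oligoadenylate synthetases activate the ribonuclease RNase L, and lie together on chromosome 12 apart from OASL. OAS3, the form with the highest affinity for long RNA, had 965, 1192 and 1474 on day 3 and 2134, 1855 and 1825 on day 5. The days did not overlap and OAS3 was 1.62-fold higher on day 5 (log2 0.70, SE 0.17, adjusted p = 0.0142). This call ended with the correction for GC content described further on, at 0.06 (adjusted p = 0.744). Its neighbours were nearly silent: OAS1 was at 0 to 8.68 and OAS2 at 1.07 to 8.51 over the 6 libraries. OASL, a related protein without synthetase activity that aids RIGI, had 44.8, 68.6 and 35.4 on day 3 and 166, 175 and 177 on day 5. It was 3.56-fold higher (log2 1.83, SE 0.23, adjusted p = 0.00117), the largest change of the tested members in either direction.

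ISG20, an exonuclease that degrades single-stranded RNA, had 114, 97.1 and 102 on day 3 and 206, 185 and 188 on day 5, which is 1.85-fold higher (log2 0.88, SE 0.10, adjusted p = 0.000654). EIF2AK2 (PKR), the kinase that halts translation on binding double-stranded RNA, had the highest value of this role and mixed days, with 4994, 5526 and 4858 against 5057, 4972 and 4855. Its log2 fold change was −0.05, with an interval of −0.25 to 0.16 (adjusted p = 0.663).

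The effectors at membranes and on viral entry included IFITM3, the highest of the 41 members per transcript length. The IFITM proteins make endosomal and plasma membranes resistant to fusion with virus envelopes, and their genes lie together on chromosome 11 (IFITM2, IFITM1 and IFITM3, chr11:303655-329475). IFITM3 had 2612, 2742 and 3747 on day 3 and 7221, 6831 and 6637 on day 5. All day 5 libraries lay above all day 3 libraries, and IFITM3 was 2.30-fold higher (log2 1.20, SE 0.15, adjusted p = 0.00111). IFITM2 had 728, 785 and 974 against 1375, 1433 and 1286, which is 1.66-fold higher (log2 0.73, SE 0.13, adjusted p = 0.00398). IFITM1, placed between them, stayed low at 13.2, 7.42 and 11.3 against 21.7, 5.36 and 7.25 (log2 −0.10, interval −1.32 to 1.12, adjusted p = 0.873). These genes share sequence: in GENCODE 44, 20.8% of the 50-base windows of IFITM3 occur in other genes, most often IFITM1. For IFITM1 the share was 55.1% and for IFITM2 12%, in both most often with a readthrough transcript. Some reads could therefore have been placed on another gene. Whether the authors' annotation held that readthrough transcript was not checked.

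MX1, a dynamin-like GTPase that traps viral nucleocapsids, was low, with 14.9, 26.0 and 25.5 on day 3 and 39.0, 35.4 and 52.8 on day 5. It was 1.90-fold higher (log2 0.93, SE 0.26, adjusted p = 0.0226). The highest day 5 library carried that call, and without day 5 replicate 3 the change was 0.76 with an adjusted p of 0.0651. CMPK2, a mitochondrial nucleotide kinase, had 32.5, 35.2 and 53.9 on day 3 and 24.9, 19.3 and 18.6 on day 5, which is 1.86-fold lower (log2 −0.90, SE 0.22, adjusted p = 0.0145). Its neighbour RSAD2 (viperin), which makes a chain-terminating nucleotide, was at 5.18 to 14 and was not tested. BST2 (tetherin), which holds budding virions at the cell surface, had 27.2, 17.9 and 8.51 against 13.0, 19.3 and 10.4 (log2 −0.22, interval −1.27 to 0.84, adjusted p = 0.687). MX2 (4.25 to 10.7) and TRIM22 (4.25 to 16.7) stayed under the filter.

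In the ISG15 pathway, which attaches a ubiquitin-like protein to others, 1 of 4 members rose and 2 fell (all tested genes: 29.3% higher, 27.6% lower). ISG15 itself had 734, 725 and 1024 on day 3 and 760.2, 745 and 700.0 on day 5 (log2 −0.15, interval −0.52 to 0.22, adjusted p = 0.423). The library at 1024 set it apart, since without day 3 replicate 3 the change was 0.01. HERC5, the main ISG15 ligase in human cells, had 686, 669 and 764 on day 3 and 530.3, 471 and 498 on day 5, and was 1.41-fold lower (log2 −0.50, SE 0.09, adjusted p = 0.00479). HERC6, its neighbour on chromosome 4 (HERC6 chr4:88378739-88443097, HERC5 chr4:88457119-88506163, both plus strand), moved the other way, with 271, 298 and 272 against 365, 376 and 374. HERC6 was 1.33-fold higher on day 5 (log2 0.41, SE 0.08, adjusted p = 0.00525).

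USP18, which removes ISG15 and also restrains the type I receptor, had 96.6, 123 and 135 on day 3 and 94.4, 86.8 and 70.4 on day 5. The nearest libraries of the 2 days, at 96.6 and 94.4, almost touched, and USP18 was 1.4-fold lower with an adjusted p of 0.0488. That call did not hold when day 3 replicate 2, day 3 replicate 3 or any single day 5 library was left out, where the adjusted p was 0.126, 0.122, 0.0532, 0.0914 and 0.13 in turn. Of the 50-base windows of USP18, 52.9% occur in other genes, most often USP41, which was at 0 to 1.42 in these libraries.

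PARP9, which with its partner DTX3L reads and writes ADP-ribose and ubiquitin marks, had 497, 517 and 462 on day 3 and 818, 796 and 626 on day 5. It was 1.51-fold higher (log2 0.59, SE 0.13, adjusted p = 0.00847). PARP14, a larger relative near it on chromosome 3, did not pass the test, with 1781, 1779 and 1841 against 1909, 1959 and 1835 (log2 0.08, interval −0.10 to 0.25, adjusted p = 0.389). DTX3L, which shares a divergent promoter region with PARP9, was read from another list and also rose, by 0.69 on the log2 scale (adjusted p = 0.00125).

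Among the remaining members, with roles in cell survival or less defined ones, 3 of 4 tested fell, against 27.6% lower over all tested genes. Of these 3, only SAMD9 kept its call under all 16 alternative settings described further on. SAMD9, a cytoplasmic restriction factor for poxviruses, had 1045, 964 and 1058 on day 3 and 745, 732 and 718 on day 5, which is 1.4-fold lower (log2 −0.48, SE 0.08, adjusted p = 0.0026). IFI27, a mitochondrial protein linked to cell death, had 51.8, 79.1 and 69.5 against 47.7, 38.6 and 45.6 (log2 −0.58, adjusted p = 0.0327). IFI6, which protects the endoplasmic reticulum from remodelling by flaviviruses, had 205, 171 and 208 against 168, 149 and 129 (log2 −0.39, adjusted p = 0.049). The nearest libraries of the 2 days of IFI6, at 171 and 168, almost touched.

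The calls of IFI27 and IFI6 lay near the threshold and were lost without most single libraries, although the sign held. Over the main test and its 16 alternatives the log2 fold change ran from −0.75 to −0.45 for IFI27 and −0.48 to −0.29 for IFI6. IFI27 lost its call without day 3 replicate 2, day 3 replicate 3 or any day 5 library (adjusted p = 0.0877, 0.0844, 0.0541, 0.0968 and 0.0683 in turn). IFI6 lost it without day 3 replicate 1, day 3 replicate 3, day 5 replicate 2 or day 5 replicate 3 (0.124, 0.117, 0.108 and 0.131). IFI35, a partner of NMI, had 152, 167 and 204 against 169, 148 and 129 (log2 −0.22, adjusted p = 0.252). IFI44, IFI44L, XAF1 and SAMD9L did not pass the filter, and IFI44L, XAF1 and SAMD9L were at 0 in at least 1 library. The 9 members under the filter held 158 reads in all over the 3 day 3 libraries and 111 over the 3 day 5 libraries, at most 16.7 in value, and were not tested. The days did not overlap in 2 of them. MX2 had 5.27, 5.56 and 4.25 against 6.51, 10.7 and 9.32, from 18 reads on day 3 and 25 on day 5. IFI44 had 12.3, 8.65 and 9.92 against 6.51, 5.36 and 8.28, from 35 and 19 reads. A single read was worth 0.62 to 1.42, so the nearest libraries of the 2 days almost touched. The share without overlap among all genes under the filter was not counted, and no change is read from these 2.

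**Figure D2:**
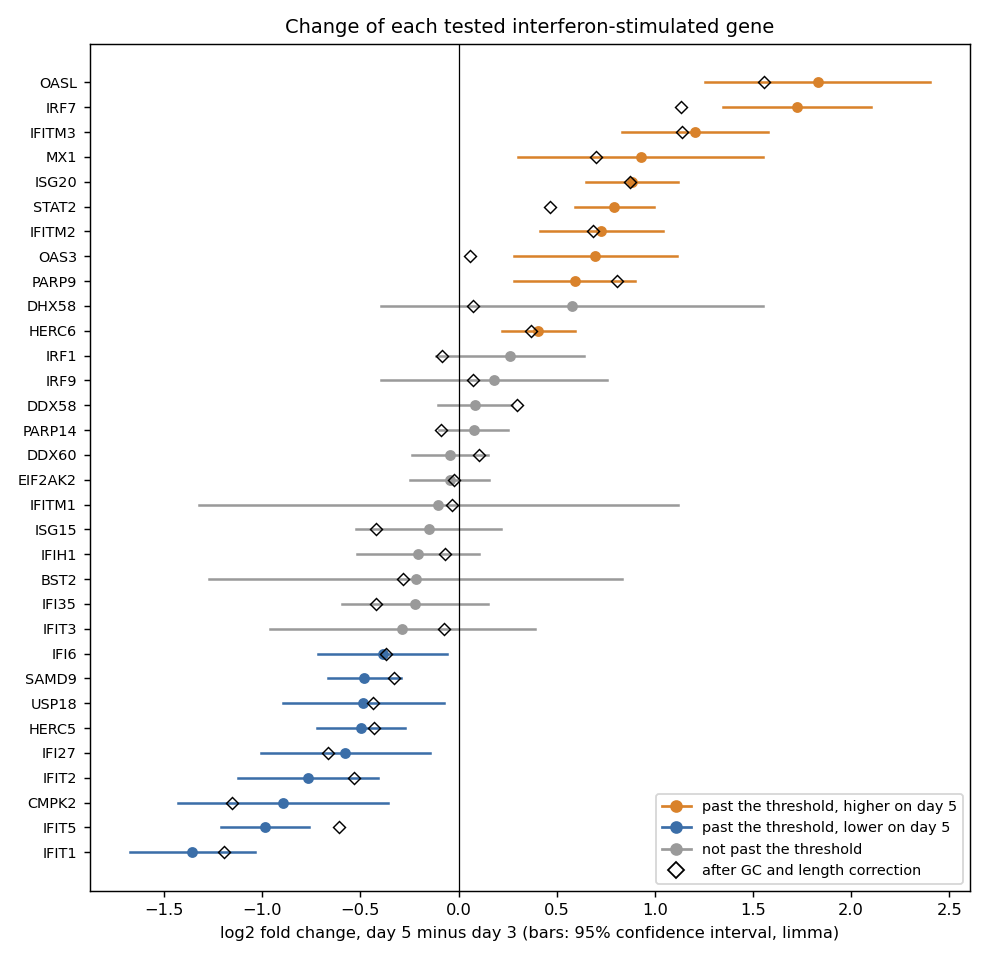
Log2 fold change (day 5 minus day 3, horizontal axis) of each tested member with its 95% confidence interval from limma (filled points and bars), and the value after correction for GC content and transcript length (open diamonds). OASL at 1.83 and IFIT1 at −1.36 mark the ends, and the widest interval, that of IFITM1, spans −1.32 to 1.12.

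Compared per length, as reads scaled to the kb of the canonical transcript and to the library total (RPKM), IFITM3 was the highest member on both days, at 137 ± 17.7 on day 3 and 329 ± 17.7 on day 5 (mean ± SD, n = 3). ISG15 was next on day 3 at 35.9 ± 4.72, above IFITM2 at 22.8 ± 1.85 and EIF2AK2 at 14.3 ± 1.68. On day 5 this order changed, with IFITM2 at 39.6 ± 2.64 above ISG15 at 33.6 ± 1.86. IFIT5 went from the fifth place (11.2 ± 0.137) to the ninth (5.92 ± 0.308), and STAT2 from the sixth (7.58 ± 0.534) to the fifth (13.8 ± 1.13). The reads of all 41 members together, scaled to the library total (CPM), came to 619.7, 632 and 609.6 on day 3 and 833, 804 and 752 on day 5. This sum is weighted by members with many reads, such as IFITM3, which was 2.30-fold higher. It does not show a rise of the list, since 10 members rose, 9 fell and the median log2 fold change was −0.04. In reads not scaled to the library total, EIF2AK2 held 18055 and IFITM3 10054 over the day 3 libraries, and 13991 and 19441 over the day 5 libraries. These counts show which members held many reads, and cannot be compared between days because depth differed. Scaled, EIF2AK2 was at 14.3 RPKM on day 3 and 14.5 on day 5.

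Fold changes followed the GC content of the transcript across all genes in these libraries. Of 5 equal bins of genes, the bin of lowest GC content (up to 41.0%) had a median log2 fold change of −0.36 and 9.02% of its genes rose. The bin of highest GC content (from 57.6%) had 0.56, and 58% rose. The members that rose had a GC content of 42.7% to 66.6% (median 52.2%) and those that fell 36.0% to 58.2% (median 44.1%). Each library was therefore also corrected for GC content and length with a smooth curve over all 19288 genes with both values, an alternative chosen after seeing the data. The medians of the 5 bins then lay between −0.01 and 0.01, and 49.3% of genes passed the test. Whether the link with GC content came from the cells or from the libraries was not tested.

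After this correction 19 members passed again, 9 higher and 10 lower, and 16 of the 19 calls were kept. OAS3 moved the most and lost its call, from 0.70 to 0.06 (adjusted p = 0.744). MX1 (0.70, adjusted p = 0.055) and USP18 (−0.44, adjusted p = 0.0549) just missed the threshold. Gained were DDX58 (0.30, higher, adjusted p = 0.0183), ISG15 (−0.42, lower, adjusted p = 0.0319) and IFI35 (−0.42, lower, adjusted p = 0.0258). A simpler form had 1 round, another loess fit and GC content before length, so its differences cannot be laid to the rounds alone. In that form MX1 kept its call (0.74, adjusted p = 0.0475) and DDX58 gained none (0.17, adjusted p = 0.108), while OAS3 was again not called (0.14, adjusted p = 0.427). With the full correction the change of STAT2 went from 0.79 to 0.46, that of IRF7 from 1.72 to 1.13 and that of IFIT5 from −0.99 to −0.61. All 3 were still past the threshold. OASL (1.56), IFITM3 (1.14), ISG20 (0.87), IFITM2 (0.69) and IFIT1 (−1.20) moved less. PARP9, of low GC content at 42.7%, moved up from 0.59 to 0.81, and CMPK2 moved down from −0.90 to −1.15.

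**Figure D3:**
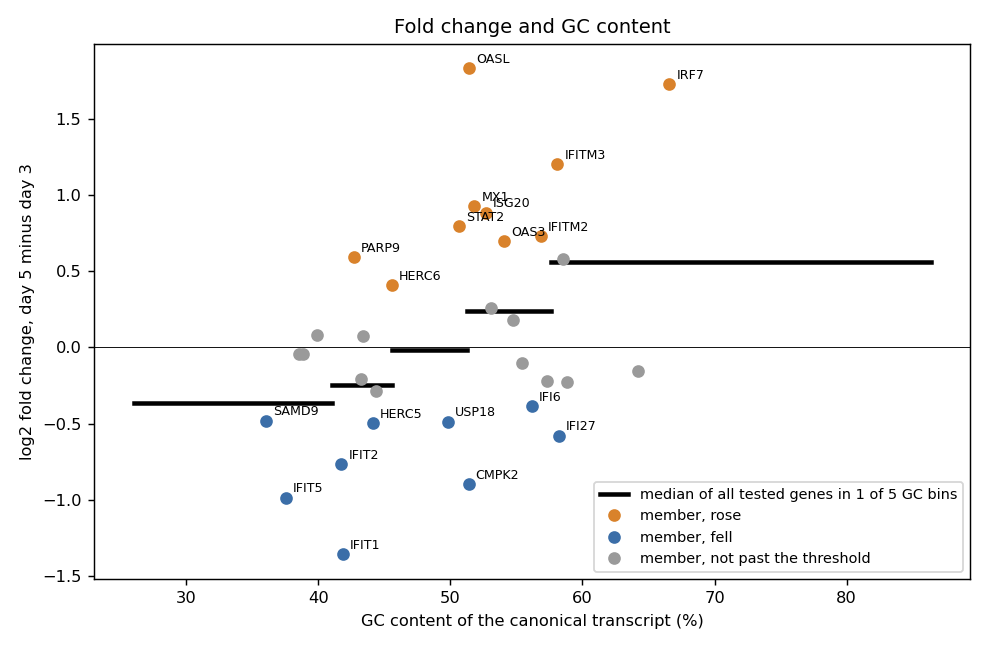
Log2 fold change (day 5 minus day 3) against the GC content of the canonical transcript in percent, for the 32 tested members (points) and as the median of all tested genes in each of 5 GC bins (black bars). The bars climb from −0.36 to 0.56, IRF7 at 66.6% GC lies far right, and PARP9 and HERC6 lie above the bar of their bin while IFI27, IFI6 and CMPK2 lie below theirs.

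Upstream of the members, the interferon genes themselves were low. Of 12 listed, 4 were in the table and only IFNE, the epithelial type I interferon, was tested. IFNE had 49.2, 49.5 and 36.9 on day 3 and 44.5, 51.4 and 45.6 on day 5 (log2 0.07, adjusted p = 0.687), although after the GC correction its change was 0.84 (adjusted p = 0.00305). The other 3, all IFNA genes, reached 8.51 at most.

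All 11 receptor and JAK-STAT genes were tested: 4 rose and 2 fell, with a median of 0.15, and 3 higher and 1 lower with a median of 0.08 after the GC correction. The 54.5% called were near the 56.9% of all tested genes (29.3% higher and 27.6% lower). After the GC correction 49.3% of all genes passed. STAT3, which mainly serves other cytokines, had 1531, 1767 and 1992 on day 3 and 3834, 3787 and 3683 on day 5 (log2 1.10, adjusted p = 0.00055). Of the type I receptor chains, IFNAR1 was at −0.22 (adjusted p = 0.0419) and IFNAR2 at −0.10 (adjusted p = 0.405). The IFNAR1 call was lost without any library but day 3 replicate 1, with an adjusted p of 0.0571 to 0.135. IFNLR1, the lambda interferon receptor, rose by 0.79 (adjusted p = 0.00314), JAK1 by 0.37 (0.0107) and TYK2 by 0.59 (0.00186), and IFNGR1, a chain of the type II receptor, fell by 0.48 on the log2 scale (adjusted p = 0.00586). None of these last 4 held after the GC correction (0.29, 0.17, −0.20 and 0.08), in which the signs of TYK2 and IFNGR1 turned. With the 1-round form of the correction IFNGR1 stayed negative (−0.11, adjusted p = 0.319) and IFNLR1 kept its call (0.34, adjusted p = 0.0435).

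Inhibitors of the receptor pathway counted 6 higher and 3 lower among 10 tested, with a median of 0.68, and 4 higher and 3 lower with a median of 0.29 after the GC correction. Before the correction 90% were called, against 56.9% of all tested genes, and 49.3% of all genes passed after it. PIAS3 and PIAS4, which restrain STAT proteins, rose by 1.05 and 1.02 (adjusted p = 0.000224 and 0.000523), the phosphatase PTPN6 by 0.90 (0.000307) and SOCS3 by 0.87 (0.00299). After the GC correction PIAS3, PIAS4 and PTPN6 stayed past the threshold and SOCS3 did not (0.27, adjusted p = 0.0797).

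Sensing and induction genes counted 8 higher and 2 lower among 13 tested, with a median of 0.58. After the GC correction they counted 3 higher and 4 lower, with a median of −0.02. Before it 76.9% were called, against 56.9% of all tested genes (29.3% higher and 27.6% lower), and after it 49.3% of all genes passed. TLR3, the endosomal receptor for double-stranded RNA, had 222, 204 and 187 on day 3 and 56.4, 85.7 and 72.5 on day 5 (log2 −1.52, adjusted p = 0.000698). Its adaptor TICAM1 moved the opposite way, with 252, 328 and 335 against 955, 896 and 965 (1.63, adjusted p = 0.00029). STING1, the adaptor of DNA sensing, rose by 1.14 (adjusted p = 0.000567). These 3 held after the correction (−1.33, 0.96 and 0.81), and NLRX1, a mitochondrial regulator of sensing that rose by 0.95 (adjusted p = 0.000622), did not (0.15, adjusted p = 0.209).

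The 32 tested genes of a further list of interferon-stimulated genes counted 16 higher and 3 lower, with a median of 0.33, and 16 higher and 2 lower with a median of 0.28 after the GC correction. The 59.4% called before the correction were near the 56.9% of all tested genes with both directions pooled. By direction they were not, with 16 of 32 higher and 3 lower, against 29.3% and 27.6% of all tested genes. After the correction 18 of the 32 were called, against 49.3% of all genes. HELZ2, a transcriptional coactivator with helicase domains, had 389, 448 and 408 on day 3 and 1750.4, 1742 and 1693 on day 5, which is 4.16-fold higher (log2 2.06, adjusted p = 0.000117). RNF213, a very large ubiquitin ligase, was 3.35-fold higher (1.75, adjusted p = 0.000117). BATF2, a transcription factor of the AP-1 family, was 2.68-fold higher (1.42, adjusted p = 0.0012) and PML, the scaffold of nuclear bodies, 2.60-fold higher (1.38, adjusted p = 0.000194). All 4 held after the correction, at 0.87, 0.95, 1.04 and 0.61. The difference between this list and the 41 members was not tested.

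**Figure D4:**
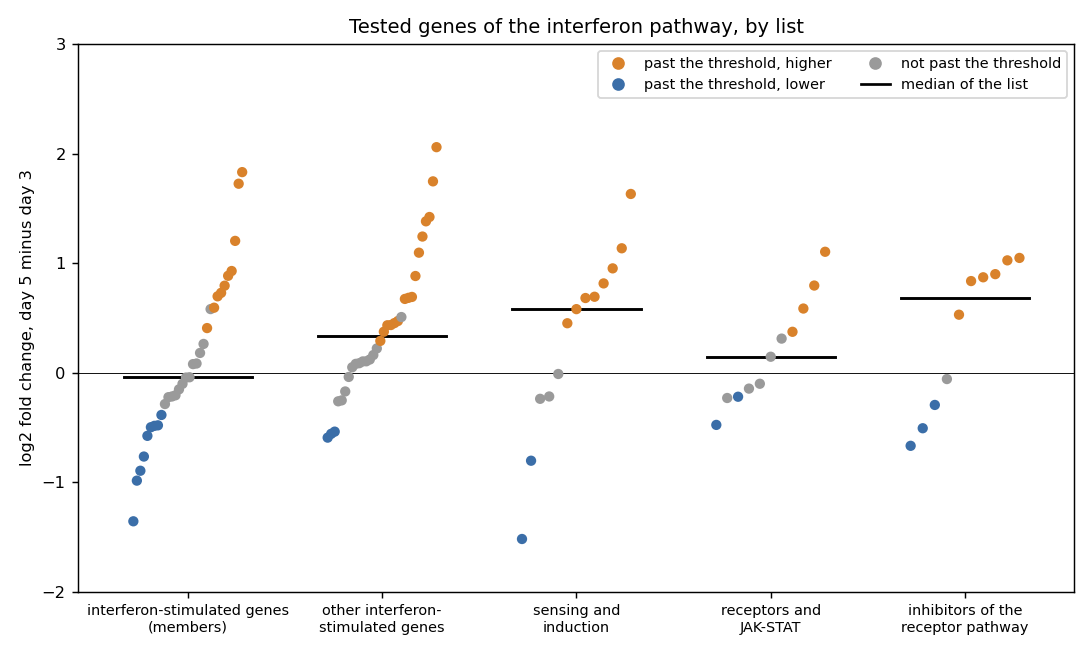
Log2 fold change (day 5 minus day 3) of every tested gene, by list, ordered within each list. The points of the 41-gene list spread to both sides of 0 with a median (black line) of −0.04, while the medians of the other lists lie at 0.33, 0.58, 0.15 and 0.68 from left to right (after the GC correction, not drawn, −0.05 and 0.28, −0.02, 0.08 and 0.29).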

How the data were processed

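For each of the 6 libraries, total RNA of WT HCT116 cells was depleted of ribosomal RNA. The libraries were strand-specific with molecular identifiers and were sequenced paired-end. Trimming and strand-specific mapping to hg38 genes were done by the authors in CLC Genomics Workbench. They named TMM as the normalization and deposited a normalized signal for each gene and library. Their notes name FastQC 0.11.8 and MultiQC 1.7. In the deposited signal, 100% of values were whole reads (within 0.01 read) times a factor of the library. The table also holds the authors' own mean, fold change, error, statistic and p columns, which were not used. Small RNA tables and day 7 were not used here.

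log2(signal + 1) was tested with limma 3.58.1 (R 4.3.3) for genes at 10 or more in 3 or more libraries, by moderated tests with Benjamini-Hochberg adjustment over all 20129 genes and a threshold of 0.05. A fold change is on this scale, which understates changes of low genes. edgeR 4.0.16 and DESeq2 1.42.0 on the recovered reads, other pseudocounts (0.1 and 10), no filter, library totals, a mean-variance trend, a replicate block, each library left out, and a loess correction for GC content and length (span 0.3, 3 rounds) were alternatives. The deposited comparison columns are named as DESeq2 names its output. The limma test was tried on simulated data, and so was a single loess on GC content alone. The full correction for GC content and length was not tried in this way. Lengths, GC content and shared 50-base windows came from GENCODE 44, promoters from RefSeq. Members and lists were chosen with earlier results of these data known. Every member was named, and of each other list up to 4 called genes of largest change, plus JAK1, TYK2, IFNAR1, IFNAR2, IFNGR1 and DTX3L (1 further gene of this rule is not reported here). Whether replicates came from separate cultures is stated only as biological replicates, and p-values measure the spread between these libraries. Tables and figures were made with pandas 2.3.3 and matplotlib 3.10.9 under Python 3.11.15.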

Additional observations from a re-analysis of the deposited data

How the results depend on the processing

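Of the 19 calls among members, 14 were kept under all 16 alternatives (STAT2, IRF7, IFIT1, IFIT2, IFIT5, OASL, ISG20, IFITM2, IFITM3, CMPK2, HERC5, HERC6, PARP9 and SAMD9). MX1 and OAS3 kept theirs under 13, IFI27 under 8, IFI6 under 7 and USP18 under 4. The number of members called ran from 14 with no filter on low values to 19. It was 17 with library totals, 19 with edgeR and 16 with DESeq2. Leaving out 1 library gave 15 to 19 calls and a median change of the members of −0.033 to 0.056. The replicate numbers did not pair the libraries (correlations of same-numbered libraries −0.01, 0.03 and 0.02), and a replicate block called 16 members and 10533 genes in all, against 11450 without it. Among members not called, the sign turned with library totals for DDX60 (0.024) and EIF2AK2 (0.022), with edgeR and DESeq2 for IFITM1 (0.12 in both), and with the GC correction for DDX60 (0.10), IRF1 (−0.086) and PARP14 (−0.089). The simpler GC correction with 1 round, whose remaining trend with GC content is not given here, also called 19 members. It differed from the full one in the loess fit and in the order of GC content and length as well. It gave IRF1 −0.044, PARP14 −0.10 and TYK2 −0.17, but turned no sign in DDX60 (−0.028) or IFNGR1 (−0.11) and gave DDX58 no call. The full one gave TYK2 −0.20 and IFNGR1 0.085. Over the libraries left out, the log2 fold change ran from −0.49 to 0.00049 for IFIT3, −0.0827 to 0.010 for EIF2AK2, −0.651 to 0.27 for IFITM1, −0.64 to 0.14 for BST2 and −0.24 to 0.0099 for ISG15.

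Receptor genes called lower numbered 2, but 1 with no filter, library totals, the replicate block and the GC correction, 4 with edgeR, and 1 to 2 without single libraries. Sensing genes were 3 higher and 4 lower after the GC correction, and 4 higher and 4 lower after the 1-round form. Without the filter, the further interferon-stimulated list had 12 calls, 10 of them higher. The causes of these shifts were not tested. The 9 members under the filter were not tested, and whether greater depth would bring them over it is unknown.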
